A study of Rattus norvegicus with 4 samples.

Results

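Translation initiation, elongation and termination factors load ribosomes onto mRNA, drive them along the coding sequence and release the finished protein. In this series they were followed as 58 genes, out of 12922 genes measured with a named probe set. The members are all genes whose single annotated symbol begins with Eif1 to Eif6, leaving out the Eif2ak kinases, or with Eef1, Eef2, Etf1, Gspt1 or Pabpc1 to Pabpc4, each represented by its brightest probe set over the 4 arrays. RNA came from smooth muscle cells of the rat aorta, which give the vessel wall its contraction. They were plated in 10% fetal bovine serum at a density of 10000 cells per cm2 for 24 h and then starved of serum and insulin for 72 h. The PDGF-BB group received platelet-derived growth factor BB at 30 ng/mL for 3 h, and the vehicle group received only the carrier solution, 10 mM acetic acid with 0.2% bovine serum albumin, over the same 3 h. Each group had 2 Affymetrix arrays. The study set out to find genes that respond early as these cells change phenotype. Whether the arrays within a group represent separate cultures is not stated in the labels. The p-values therefore measure the spread between these arrays alone, which may be technical.

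In the initiation pathway, the cap-binding complex eIF4F, made of eIF4E, the scaffold eIF4G and the helicase eIF4A, recruits mRNA. eIF2 brings the initiator tRNA, its exchange factor eIF2B recharges it with GTP, and eIF3, eIF1 and eIF1A assemble and steer the small ribosomal subunit to the start codon. eEF1 delivers aminoacyl-tRNA to the elongating ribosome, eEF2 moves the ribosome along, and eRF1 with eRF3 ends the chain at a stop codon. Growth factors are known to raise protein synthesis largely by phosphorylation, through mTORC1 acting on the eIF4E-binding proteins, through the MNK kinases acting on eIF4E and through dephosphorylation of eEF2. Arrays measure RNA only, so none of these protein events was observed.

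Median intensities over all probe sets were 144 and 132 for the PDGF-BB arrays and 145 and 148 for the vehicle arrays, and the number of arrays limits the precision. As a rough yardstick of background, the highest intensity of 27 Bacillus control probe sets was 80.3, and 57 of the 58 members had both group means above it. All 8 smooth muscle markers measured were above the yardstick on every array, and summed to 47385 and 48592 with PDGF-BB against 50509 and 51492 with vehicle. By limma, 3 of the 8 were lower with PDGF-BB: Lmod1 (-1.70, adjusted p 0.00246), Smtn (-0.79, 0.00930) and Myh11 (-0.70, 0.0256). The 4 endothelial markers measured lay between 2.31 and 35.1. Of 6 macrophage and leukocyte markers, Cd14 alone exceeded 80.3 on every array, and the list summed to 1306 and 1428 with PDGF-BB against 1559 and 1616 with vehicle. Of 4 epithelial markers, 2 were higher by limma: Epcam, at 502 and 452 with PDGF-BB against 22.4 and 18.9 with vehicle, and Krt8, at 404 and 377 with PDGF-BB against 241 and 217 with vehicle (0.73, adjusted p 0.0126). Cdh1 and Krt18 stayed at or under 24.0 on every array, and the list summed to 852 and 934 with PDGF-BB against 253 and 306 with vehicle. The part of these markers in the results below was not tested. In RNA from a whole culture, a change in the share of a cell type and a change in RNA per cell cannot be told apart.

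More translation factor genes passed the test as higher than as lower with PDGF-BB, and most did not pass it. With limma and a threshold of 0.05 on the adjusted p, 14 of the 58 members were higher, 3 were lower and 41 did not pass, where 27.7% of all genes passed in either direction. The higher members made up 24.1%, against 12.4% of all 12922 genes, and the lower members 5.17%, against 15.3% of all genes. Among genes with a mean intensity over 1000, where 47 of the members lie, 12 of 47 members were higher (25.5%) and 1 was lower (2.13%), against 20.5% and 10.5% of all 2970 such genes. The median log2 fold change, PDGF-BB minus vehicle on the log2(intensity + 16) scale, was 0.12 over the members and -0.03 over all genes. Both PDGF-BB arrays lay above both vehicle arrays for 35 members (60.3%) and below them for 12 (20.7%), against 29.7% and 37.8% of all genes. The changes were modest in size: 10 members were more than 1.5-fold higher, 3 more than 1.5-fold lower, and Eif4e alone passed 2-fold, 1.72% of the members against 8.43% of all genes. With quantile normalization 15 members were higher and 7 lower, where 14.7% of all genes were higher and 22.2% lower. Without vehicle replicate 1 or without vehicle replicate 2, Eif4e was the single member still called and 0 were called lower, in fits with 1 residual degree of freedom that called 6.12% and 6.55% of all genes. Without PDGF-BB replicate 1 the counts were 9 higher and 3 lower (8.21% and 12.6% of all genes), and without PDGF-BB replicate 2 they were 10 higher and 1 lower (8.01% and 6.65% of all genes). Of the 41 members that did not pass, 18 were called in at least 1 of the 14 other settings. Not passing does not show that a gene was unchanged. Among simulated probe sets with a log2 change of 0.5, the test recovered 4 of 65. The simulation changed a far smaller share of probe sets than the 27.7% of genes called here. Its adjusted threshold was therefore stricter, and the rate does not carry over to the members.

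**Figure D1:**
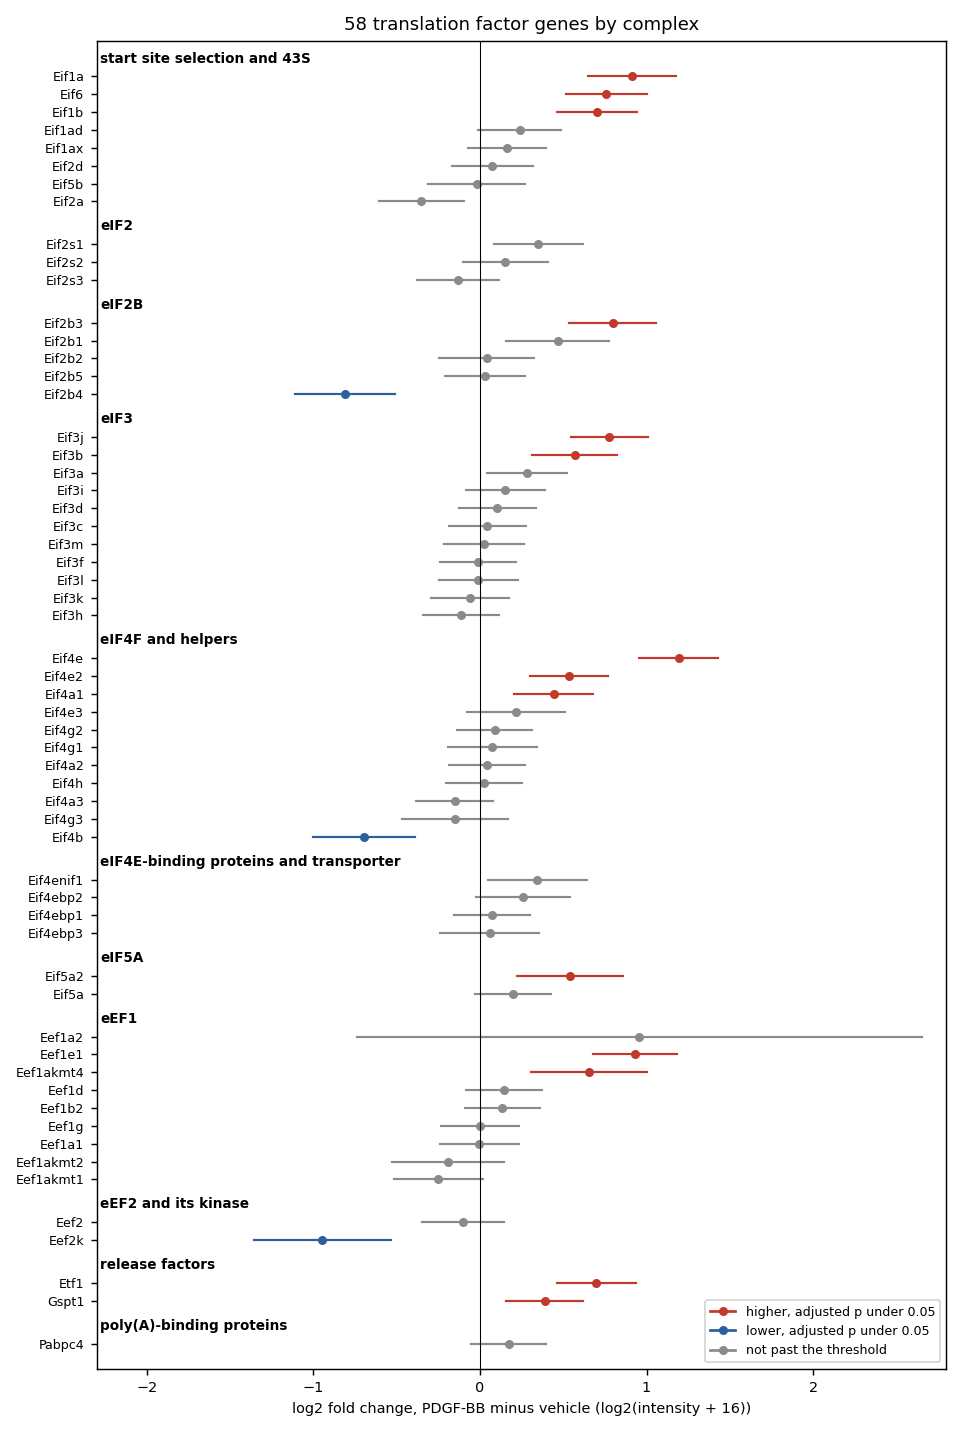
Log2 fold change (PDGF-BB minus vehicle) of each of the 58 members, grouped by complex, with the 95% confidence interval from limma (n = 2 arrays a group). The 14 members in red were higher and the 3 in blue lower at an adjusted p under 0.05, and Eif4e lies farthest to the right among them.

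Within eIF4F the cap-binding subunit rose and the scaffolds did not pass the test. Eif4e, which binds the mRNA cap, had intensities of 4981 and 5044 with PDGF-BB, against 2125 and 2247 with vehicle. Both PDGF-BB arrays lay far above both vehicle arrays. This was a log2 fold change of 1.19 (SE 0.09), or 2.28-fold, with a limma adjusted p of 0.00311. A second Eif4e probe set gave 561 and 557 with PDGF-BB against 202 and 180 with vehicle, a log2 fold change of 1.47 (SE 0.10, adjusted p 0.00251 by limma). Eif4e stayed past the threshold in all 14 other settings, with log2 fold changes of 1.03 to 1.33. RefSeq names 10 rat pseudogenes after Eif4e, 8 after Eif4a1 and 4 after Eif4b, and whether they add signal to the probe sets of these genes was not tested.

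The other cap-binding proteins and the helicase subunits moved less. Eif4e2, a relative of eIF4E that binds the cap and is known as a repressor of translation, was at 2385 and 2290 with PDGF-BB against 1596 and 1621 with vehicle, a log2 fold change of 0.53 (SE 0.09, adjusted p 0.0182 by limma). Eif4a1, the main helicase gene, was at 8878 and 8639 with PDGF-BB against 6283 and 6602 with vehicle, a log2 fold change of 0.44 (SE 0.09, adjusted p 0.0308 by limma). In both genes the PDGF-BB arrays lay above the vehicle arrays. The closely related helicase gene Eif4a2 was at 7969 and 8061 with PDGF-BB against 7726 and 7828 with vehicle, a log2 fold change of 0.04 that turned to -0.04 with quantile normalization and -0.07 with cyclic loess. The scaffold genes Eif4g1 (0.07, -0.08 with quantile normalization and 0.41 as the mean of its 3 probe sets) and Eif4g3 (-0.15) did not pass. The related gene Eif4g2 (0.09, -0.04 with cyclic loess) and the third cap-binding gene Eif4e3 (0.22) did not pass either. With a variance trend in the fit Eif4g2 was called higher (limma adjusted p 0.0307). The other 2 Eif4g1 probe sets had log2 fold changes of 0.43 and 0.73, with the PDGF-BB arrays above the vehicle arrays (limma adjusted p 0.107 and 0.128). The Eif4a1 call was lost without any 1 of the arrays (limma adjusted p 0.0748 to 0.216) and with an offset of 1 (0.0567), and the Eif4e2 call without any 1 of the arrays (0.0531 to 0.147).

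Eif4b, the cofactor that stimulates the eIF4A helicase, moved the other way. It was at 1397 and 1211 with PDGF-BB against 2045 and 2190 with vehicle, and the groups did not overlap. The log2 fold change was -0.70 (SE 0.11, adjusted p 0.0184 by limma), a 1.62-fold decrease. The second Eif4b probe set fell by 0.68 (SE 0.12, adjusted p 0.0205 by limma). Eif4h, which is related to Eif4b in function, had a log2 fold change of 0.02, turning to -0.12 with quantile normalization. The Eif4b call was lost with PDGF-BB replicate 2 (limma adjusted p 0.0611), vehicle replicate 1 (0.104) or vehicle replicate 2 (0.127) left out.

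**Figure D2:**
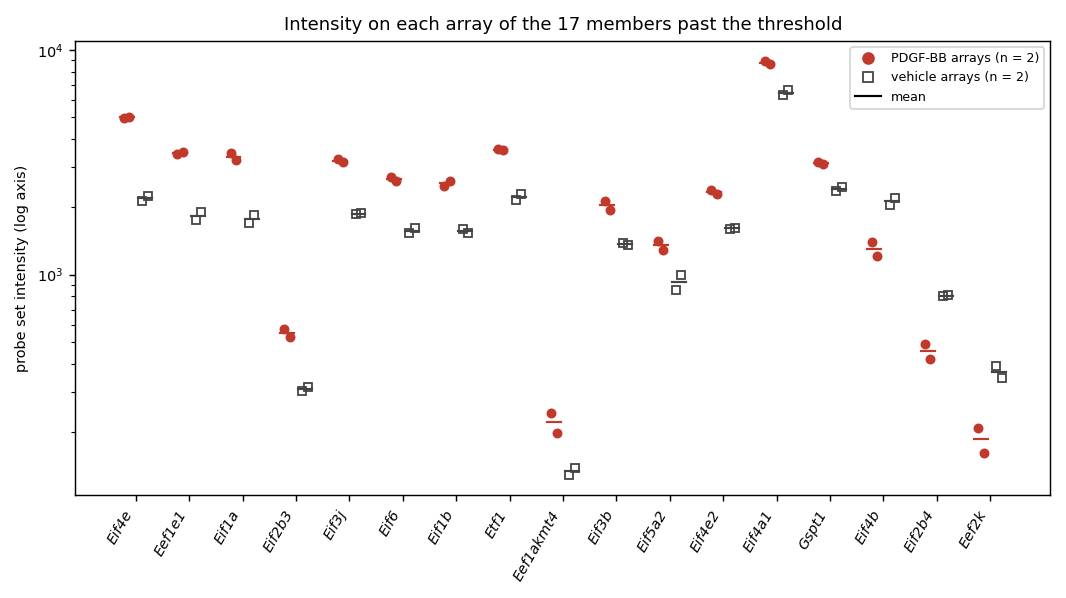
Probe set intensity (log axis) on each of the 2 PDGF-BB arrays (filled circles, left) and 2 vehicle arrays (open squares, right) for the 17 members past the threshold, ordered by log2 fold change, with the mean as a bar. In each of the 17 genes the PDGF-BB arrays lie on 1 side of both vehicle arrays, above for 14 and below for Eif4b, Eif2b4 and Eef2k. The 17 were selected by a test on these same arrays, and in 67.5% of all genes the groups did not overlap.

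The eIF4E-binding proteins, which hold eIF4E away from eIF4G until mTORC1 phosphorylates them, gave 0 calls among 3 genes. Over all genes, 27.7% passed in either direction. Eif4ebp1 was at 1639 and 1684 with PDGF-BB against 1580 and 1577 with vehicle. Its log2 fold change of 0.07 (95% interval -0.15 to 0.30, limma adjusted p 0.593) turned to -0.04 with quantile normalization. The change of Eif4e exceeded that of Eif4ebp1 by 1.12 on the log2 scale, between 1.07 and 1.17 over the 4 pairs of a PDGF-BB and a vehicle array. Eif4ebp2 had a log2 fold change of 0.26 and was called higher in 2 of the 14 other settings. Eif4ebp3 had a log2 fold change of 0.06. Eif4enif1, the eIF4E transporter, had one of 0.34 (limma adjusted p 0.0964) and was called higher in 5 of the 14 other settings.

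Paralogous genes of the same step differed in size of change. The change of Eif4e exceeded that of Eif4e2 by 0.66 (0.59 to 0.72 over the 4 array pairs), and that of Eif4a1 exceeded that of Eif4a2 by 0.40 (0.35 to 0.45). The change of Eif1a exceeded that of Eif1ax by 0.75 (0.69 to 0.80), and that of Eif5a2 exceeded that of Eif5a by 0.34 (0.16 to 0.52). These pairs were chosen after their values were seen. The 4 array pairs share arrays, and with 2 arrays a group an exact two-sided permutation test cannot give a p below 0.333, so the differences carry no test.

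The Eif4e promoter is printed because Eif4e carried the largest called change, and those of Eif5a2, Eif3b and Eef2k as examples of called genes of both directions that share a short sequence with it. Promoters were matched for 53 of the 58 members from RefSeq on the GRCr8 build, as 250 bases before to 50 bases after the annotated start. The E-box CACGTG, which reads the same on both strands and is the binding sequence of MYC and related factors, was found in 13 of the 53 members (24.5%). It was present in 6.42% of all 33469 promoters and in 9.34% of the 10656 genes with a single-symbol probe set and a promoter. By outcome, 5 of 14 higher members held it, 1 of 2 lower members and 7 of 37 members that did not pass. The core sequence of ETS factor sites, TTCCGG on either strand, which cannot overlap an E-box, was found in 25 of 53 members against 14.95% of all promoters and 24.94% of the genes with a probe set, in 5 of 14 higher, 0 of 2 lower and 20 of 37 other members. Eif4e held 2 E-boxes, starting 237 and 80 bases before the start, and Eif5a2 held 2, starting 196 and 171 bases before it. Eif3b held 1 at 57 bases and Eef2k 1 at 77 bases before the start. The other called members with an E-box were Eif1b, at 54 bases, and Eef1akmt4, at 101 bases before the start, whose sequences are not printed. The stretches below run 5′ to 3′ up to the base before the annotated start, with the E-box in capitals: Eif4e at chr2:229740503-229740752 on the plus strand, Eif5a2 at chr2:113657624-113657833 on the plus strand, Eif3b at chr12:19334769-19334868 on the minus strand and Eef2k at chr1:184824320-184824419 on the plus strand, all in GRCr8. For Eif4e and Eif5a2 the start in the promoter table lies inside the annotated span of the gene, downstream of its first base. A match is a description of these letters and shows no binding.
Eif4e: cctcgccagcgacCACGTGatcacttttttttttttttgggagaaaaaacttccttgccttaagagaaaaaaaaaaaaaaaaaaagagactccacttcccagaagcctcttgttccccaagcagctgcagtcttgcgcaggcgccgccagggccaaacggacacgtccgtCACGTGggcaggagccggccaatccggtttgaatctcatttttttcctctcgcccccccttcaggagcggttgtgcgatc
Eif5a2: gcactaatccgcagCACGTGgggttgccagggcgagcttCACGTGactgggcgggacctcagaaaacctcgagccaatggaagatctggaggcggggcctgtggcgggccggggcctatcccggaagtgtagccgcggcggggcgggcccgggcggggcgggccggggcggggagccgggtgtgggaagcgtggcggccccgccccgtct
Eif3b: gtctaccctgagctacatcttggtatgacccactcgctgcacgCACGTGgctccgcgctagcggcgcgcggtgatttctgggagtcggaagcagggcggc
Eef2k: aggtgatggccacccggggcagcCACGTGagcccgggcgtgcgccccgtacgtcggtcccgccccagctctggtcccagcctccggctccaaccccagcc

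Among the factors that prepare the small subunit and select the start codon, 3 of 8 rose, 0 fell and 5 did not pass. Their median log2 fold change was 0.20. For comparison, 12.4% of all genes were higher, and 20.5% of genes with a mean intensity over 1000. Eif1a, whose product promotes scanning and start codon recognition, was at 3461 and 3227 with PDGF-BB against 1700 and 1842 with vehicle. This was a log2 fold change of 0.91 (SE 0.10, adjusted p 0.00698 by limma), and its second probe set gave 1.04 (SE 0.09). Eif6, which keeps the large subunit from joining too early and takes part in its assembly, was at 2732 and 2606 with PDGF-BB against 1530 and 1609 with vehicle, a log2 fold change of 0.76 (SE 0.09, adjusted p 0.00863 by limma). Eif1b, a paralogue of the start-codon fidelity factor eIF1, was at 2485 and 2610 with PDGF-BB against 1588 and 1529 with vehicle, a log2 fold change of 0.70 (SE 0.09, adjusted p 0.0101 by limma). In all 3 genes both PDGF-BB arrays were well above both vehicle arrays. The X-linked copy Eif1ax was at 2981 and 2885 with PDGF-BB against 2564 and 2672 with vehicle, a log2 fold change of 0.16 (limma adjusted p 0.260). Eif2a, which despite its name is not a subunit of eIF2 and can bring initiator tRNA to the ribosome on its own, had the lowest value, -0.35 (limma adjusted p 0.0634), and was called lower in 6 of the 14 other settings, among them quantile normalization (-0.46, 0.0114). The Eif1a, Eif6 and Eif1b calls were lost without vehicle replicate 1 (limma adjusted p 0.0703 to 0.0887) or vehicle replicate 2 (0.0558 to 0.0957).

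The 3 eIF2 subunit genes did not pass, though Eif2s1 was called higher in 6 of the 14 other settings, Eif2s2 in 1, and Eif2s3 was called lower in 1 (quantile normalization, limma adjusted p 0.0414). Eif2s2, the beta subunit, was at 5688 and 5717 with PDGF-BB against 4901 and 5361 with vehicle, a log2 fold change of 0.15 (95% interval -0.10 to 0.41, limma adjusted p 0.319). Eif2s1, the alpha subunit that stress kinases phosphorylate, was at 2989 and 2766 with PDGF-BB against 2162 and 2344 with vehicle, a log2 fold change of 0.35 (limma adjusted p 0.0723). Eif2s3, the gamma subunit, had a log2 fold change of -0.13.

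The exchange factor eIF2B held members called in both directions. Eif2b3, the gamma subunit, which lies in the catalytic part, was at 576 and 526 with PDGF-BB against 302 and 318 with vehicle. Its log2 fold change was 0.80 (SE 0.10, adjusted p 0.00923 by limma). Eif2b4, the delta subunit of the regulatory part, was at 491 and 420 with PDGF-BB against 803 and 812 with vehicle, a log2 fold change of -0.81 (SE 0.11, adjusted p 0.0123 by limma). In neither gene did the groups overlap, and the 2 changes differed by 1.61 on the log2 scale, between 1.53 and 1.68 over the 4 array pairs. Eif2b1, the alpha subunit, was at 1531 and 1330 with PDGF-BB against 985 and 1074 with vehicle, just outside the threshold (0.47, limma adjusted p 0.0521), and was called higher in 7 of the 14 other settings. Eif2b2 (0.04, -0.06 with quantile normalization) and the catalytic epsilon subunit Eif2b5 (0.03, -0.013 without PDGF-BB replicate 1) had overlapping groups. The second, dimmer Eif2b5 probe set did not overlap, at 236 and 193 with PDGF-BB against 179 and 177 with vehicle (0.24, limma adjusted p 0.2445). The Eif2b3 and Eif2b4 calls were lost without vehicle replicate 1 (limma adjusted p 0.0879 and 0.0926) or vehicle replicate 2 (0.0733 and 0.0925).

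In eIF3, 2 of 11 subunit genes rose and 9 did not pass, where 20.5% of genes with a mean intensity over 1000 were higher. The median log2 fold change over the 11 was 0.04. Eif3j, a loosely bound subunit that contacts the decoding site of the small subunit, was at 3267 and 3166 with PDGF-BB against 1868 and 1872 with vehicle. This was a log2 fold change of 0.78 (SE 0.09, adjusted p 0.00724 by limma). Eif3b, a scaffold of the complex, was at 2133 and 1948 with PDGF-BB against 1378 and 1358 with vehicle, a log2 fold change of 0.57 (SE 0.10, adjusted p 0.0194 by limma). Eif3a, the largest scaffold subunit, came next at 0.28 (limma adjusted p 0.0916) and was called higher in 5 of the 14 other settings. Its second, dimmer probe set gave 0.59 (limma adjusted p 0.0649), with the PDGF-BB arrays above the vehicle arrays. The 8 others lay between -0.11 for Eif3h and 0.15 for Eif3i, and 7 of these 8 changed sign in at least 1 other setting. Eif3h was the exception, and it was called lower in 2 of the 14 other settings. The Eif3j call was lost without vehicle replicate 1 (limma adjusted p 0.0779) or vehicle replicate 2 (0.0744), and the Eif3b call with PDGF-BB replicate 1 (0.0530), vehicle replicate 1 (0.135) or vehicle replicate 2 (0.140) left out.

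**Figure D3:**
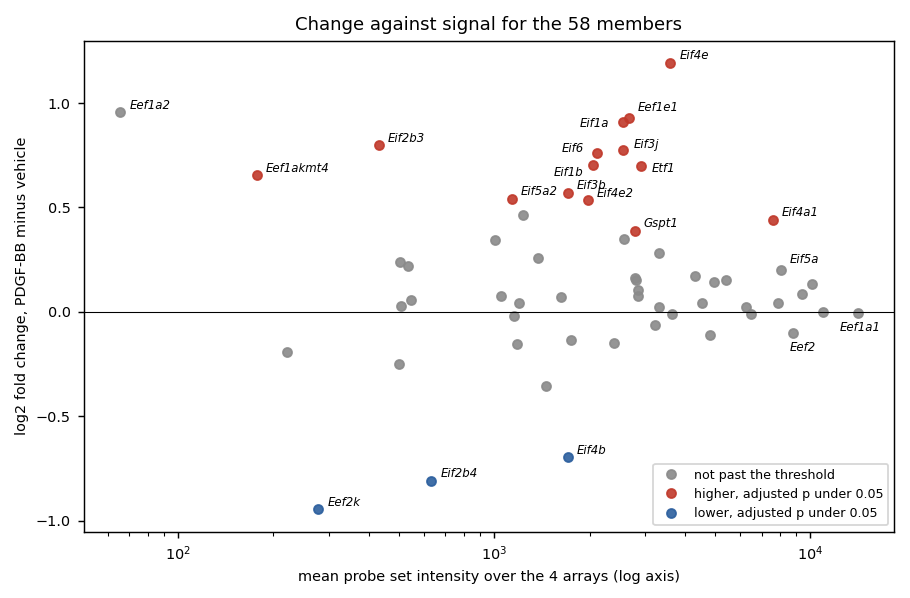
Log2 fold change (PDGF-BB minus vehicle) of the 58 members against their mean intensity over the 4 arrays (log axis), with called members in red (higher) and blue (lower). The 6 members above 8000, among them Eef1a1, Eef2 and Eif5a, lie between -0.10 and 0.20.

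The core elongation factor genes did not pass the test. The 6 members with a mean above 8000, which besides eEF1 and eEF2 genes include Eif4g2 and Eif5a, gave 0 calls by limma, where 6 of 125 genes of that intensity were higher and 1 lower. Eef1a1, which carries aminoacyl-tRNA, was at 14421 and 13729 with PDGF-BB against 13949 and 14252 with vehicle, and the groups overlapped. Its log2 fold change of 0.00 (95% interval -0.24 to 0.23) had a sign that depended on the scaling and on the array left out. This value rests on a probe set whose s suffix marks probes that can match more than 1 transcript. A second Eef1a1 probe set, without that suffix, was at 13861 and 13058 with PDGF-BB against 13345 and 13960 with vehicle. Its log2 fold change was -0.02 (limma adjusted p 0.899), with overlapping groups. Of the subunits that exchange the nucleotide of eEF1A, Eef1b2 had a log2 fold change of 0.13 and Eef1d of 0.14 (-0.015 with quantile normalization). Eef1g had a value that changed sign in 3 settings. With a variance trend in the fit, Eef1b2 and Eef1d were called higher (limma adjusted p 0.00501 and 0.0181). Eef2, the translocase, was at 8800 and 8226 with PDGF-BB against 9005 and 9251 with vehicle, a log2 fold change of -0.10 (95% interval -0.35 to 0.14, limma adjusted p 0.491). Eef1a2, the muscle and neuron form of eEF1A, was near background at 33.6 and 164 with PDGF-BB against 30.8 and 34.6 with vehicle, so that its log2 fold change of 0.96 (SE 0.63) rested on PDGF-BB replicate 2. With that array left out, its value was 0.03, and with PDGF-BB replicate 1 left out it was 1.88 (limma adjusted p 0.0271).

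Other members of the eEF1 group did rise, 2 of 9 in all, where 12.4% of all genes were higher. Eef1e1, known in mammals as a small scaffold protein of the complex of aminoacyl-tRNA synthetases and not as a part of eEF1 itself, was at 3451 and 3528 with PDGF-BB against 1748 and 1906 with vehicle. This was a log2 fold change of 0.93 (SE 0.09, adjusted p 0.00602 by limma), or 1.90-fold. Eef1akmt4, which encodes a lysine methyltransferase of eEF1A, was at 243 and 197 with PDGF-BB against 129 and 138 with vehicle, a log2 fold change of 0.65 (SE 0.13, adjusted p 0.0304 by limma). The methyltransferase genes Eef1akmt1 (-0.25) and Eef1akmt2 (-0.19) did not pass. The Eef1e1 call was lost without vehicle replicate 1 (limma adjusted p 0.0645) or vehicle replicate 2 (0.0509), and the Eef1akmt4 call with PDGF-BB replicate 1 (0.0610), vehicle replicate 1 (0.169) or vehicle replicate 2 (0.133) left out and with an offset of 1 (0.0606).

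Eef2k, the kinase that phosphorylates and inactivates eEF2, had the largest decrease of the members. It was at 209 and 162 with PDGF-BB against 393 and 347 with vehicle. The log2 fold change was -0.95 (SE 0.15, adjusted p 0.0182 by limma), a 1.93-fold decrease. Of its 4 probe sets, 3 were called lower. On the other 2 of these, the PDGF-BB arrays were at 92.0 and 68.8 and at 24.6 and 24.2, near or below the Bacillus yardstick, against 255 and 247 and 89.2 and 97.4 on the vehicle arrays, so the size of the change is not given. The fourth lay below the yardstick on all arrays. The call was lost with PDGF-BB replicate 2 (limma adjusted p 0.0600), vehicle replicate 1 (0.111) or vehicle replicate 2 (0.0807) left out.

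Both release factor genes among the members rose, where 20.5% of genes with a mean intensity over 1000 were higher. Etf1, which encodes eRF1 and recognises stop codons, was at 3619 and 3584 with PDGF-BB against 2153 and 2278 with vehicle, a log2 fold change of 0.70 (SE 0.09, adjusted p 0.010 by limma). Gspt1, the GTPase eRF3a that works with eRF1, was at 3183 and 3119 with PDGF-BB against 2363 and 2445 with vehicle, a log2 fold change of 0.39 (SE 0.09, adjusted p 0.0399 by limma). The PDGF-BB arrays were above the vehicle arrays in both. The related gene Gspt2, which the member rule leaves out, did not pass. It was at 149 and 111 with PDGF-BB against 117 and 111 with vehicle, with overlapping groups (0.16, limma adjusted p 0.523). Etf1 was lost without vehicle replicate 1 (limma adjusted p 0.0997) or vehicle replicate 2 (0.0810), and Gspt1 without any 1 of the arrays (0.0819 to 0.252) and with an offset of 1 (0.0667).

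Of the eIF5A pair, factors that carry the modified lysine hypusine and help ribosomes through difficult peptide bonds, Eif5a2 passed and Eif5a did not. Eif5a2 was at 1409 and 1289 with PDGF-BB against 855 and 992 with vehicle, a log2 fold change of 0.54 (SE 0.12, adjusted p 0.0379 by limma) that was lost without any 1 of the arrays (0.0950 to 0.211) and with an offset of 1 (0.0727). Eif5a was at 8525 and 8726 with PDGF-BB against 7456 and 7549 with vehicle, without overlap. Its log2 fold change was 0.20 (95% interval -0.03 to 0.43, limma adjusted p 0.171), and it was called higher with a variance trend (limma adjusted p 0.00183). Pabpc4, the single poly(A)-binding protein gene among the members, was at 4541 and 4621 with PDGF-BB against 4074 and 4055 with vehicle. Its log2 fold change was 0.17 (95% interval -0.05 to 0.40, limma adjusted p 0.224), and 0.0111 was the adjusted p with a variance trend. The second Pabpc4 probe set gave 0.34 (limma adjusted p 0.0877). On both probe sets the PDGF-BB arrays lay above the vehicle arrays.

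**Figure D4:**
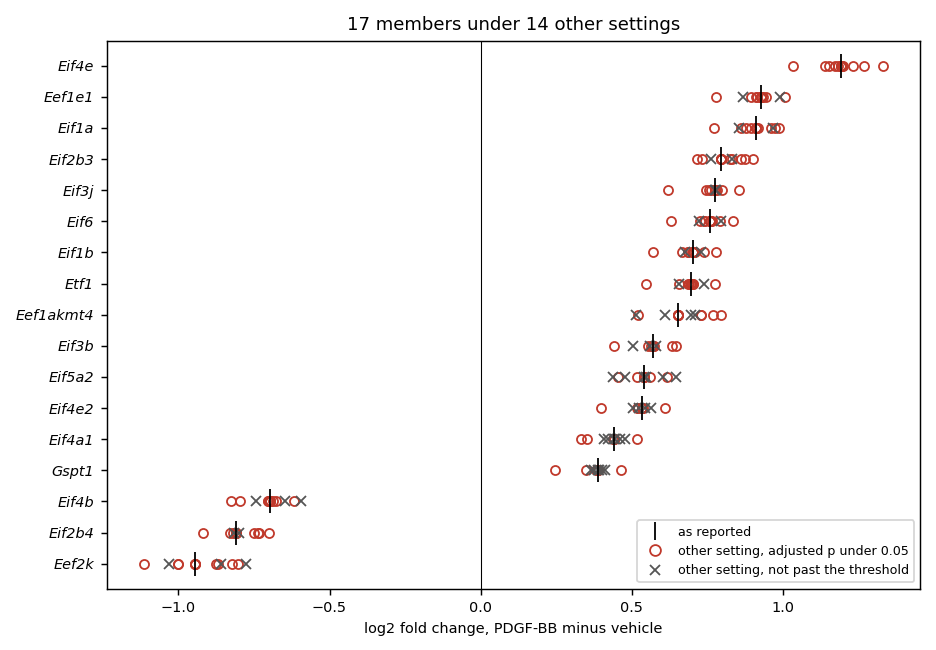
Log2 fold change (PDGF-BB minus vehicle) of the 17 called members as reported (black bar) and under each of 14 other settings, as circles where the adjusted p stayed under 0.05 and crosses where it did not. No value crosses 0 for any of the 17 genes, and Eif4e alone has circles throughout.

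Other genes of translation control gave more decreases than increases, as did all genes. They come from a list of 67 genes that the member rule leaves out, of which 59 were measured. The list is called regulators below, though it also holds substrates such as Rps6 and recycling and rescue factors. By limma 9 of the 59 were higher, 14 lower and 36 not past the threshold, with a median log2 fold change of -0.06. Of all 12922 genes, 1603 (12.4%) were higher and 1971 (15.3%) lower. Of 13 genes of mTORC1, the kinase complex that frees eIF4E from its binding proteins, and its inputs, 0 were higher and 7 lower. These were Sesn1, Tbc1d7, Deptor, Tsc1, Akt1s1, Rhebl1 and Mlst8, of which Rhebl1 lay below the Bacillus yardstick on all 4 arrays (31.7 and 28.4 with PDGF-BB against 54.1 and 45.7 with vehicle). The count depended on the setting. It was 3 lower with an offset of 1, where 10.3% of all genes were lower, and 9 lower with quantile normalization (22.2%). An offset of 64 (19.9%), subtracting array medians (15.6%) and cyclic loess (17.4%) gave 8 lower each. With an offset of 64, array medians subtracted or a variance trend, 1 of the 13 was higher. With PDGF-BB replicate 1 left out 4 were lower, with PDGF-BB replicate 2 left out 2, and with either vehicle array left out 1, Sesn1. Tsc1, Akt1s1, Rhebl1 and Mlst8 had limma adjusted p-values of 0.0342 to 0.0450 and lost their calls in 5 to 7 other settings each. The products of Sesn1, Deptor and Akt1s1 are known as inhibitors of mTORC1, Tsc1 and Tbc1d7 encode subunits of the inhibitory TSC complex, Rhebl1 encodes a relative of the activating GTPase Rheb, and Mlst8 a subunit of mTORC1 itself. Sesn1 was at 96.8 and 67.8 with PDGF-BB, the second value under the yardstick, against 352 and 361 with vehicle, a log2 fold change of -1.94 (SE 0.17, adjusted p 0.00438 by limma). Tbc1d7 was at 118 and 104 with PDGF-BB against 216 and 226 with vehicle (-0.91, SE 0.10), and Deptor at 1909 and 1742 with PDGF-BB against 2849 and 2905 with vehicle (-0.65, SE 0.10).

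Kinases of eIF4E and eIF2 and their counterparts moved as follows. Both MNK kinase genes, whose products phosphorylate eIF4E, fell: Mknk1 was at 181 and 160 with PDGF-BB against 317 and 301 with vehicle (-0.80, SE 0.10), and Mknk2 at 986 and 910 with PDGF-BB against 1372 and 1407 with vehicle (-0.55, SE 0.09). Ppp1r15a, the inducible subunit that directs a phosphatase to eIF2 alpha, was at 1491 and 1401 with PDGF-BB against 511 and 518 with vehicle, a log2 fold change of 1.46 (SE 0.09, adjusted p 0.00211 by limma), and its constitutive relative Ppp1r15b also rose, by 0.58. Of the 4 eIF2 kinase genes, Eif2ak1 fell by 0.56 and 3 did not pass. Dph3, needed to make the diphthamide residue of eEF2, was at 1943 and 1897 with PDGF-BB against 1078 and 1020 with vehicle (0.86, SE 0.09). Larp1, which binds mRNAs of ribosomal proteins and elongation factors, was at 1816 and 1672 with PDGF-BB against 1093 and 1123 with vehicle (0.65, SE 0.09). The helicase gene Ddx3x was at 6866 and 6727 with PDGF-BB against 4680 and 4740 with vehicle (0.53, SE 0.09). Paip2, an inhibitor of the poly(A)-binding protein, was at 2333 and 2139 with PDGF-BB against 3535 and 3620 with vehicle (-0.68, SE 0.09). In each gene whose array values are given in these sentences the groups did not overlap. The 10 regulators with the smallest p were Ppp1r15a, Sesn1, Dph3, Tbc1d7, Mknk1, Paip2, Larp1, Deptor, Ddx3x and Mknk2, with limma adjusted p-values of 0.00211 to 0.0205. Ppp1r15a and Sesn1 kept their calls in all 14 other settings, while the other 8 lost theirs without vehicle replicate 1 (0.0601 to 0.147) and without vehicle replicate 2 (0.0676 to 0.150). Without PDGF-BB replicate 2 the adjusted p was 0.0503 for Paip2, 0.0519 for Deptor, 0.0560 for Ddx3x and 0.0640 for Mknk2, and without PDGF-BB replicate 1 it was 0.0520 for Ddx3x.

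**Figure D5:**
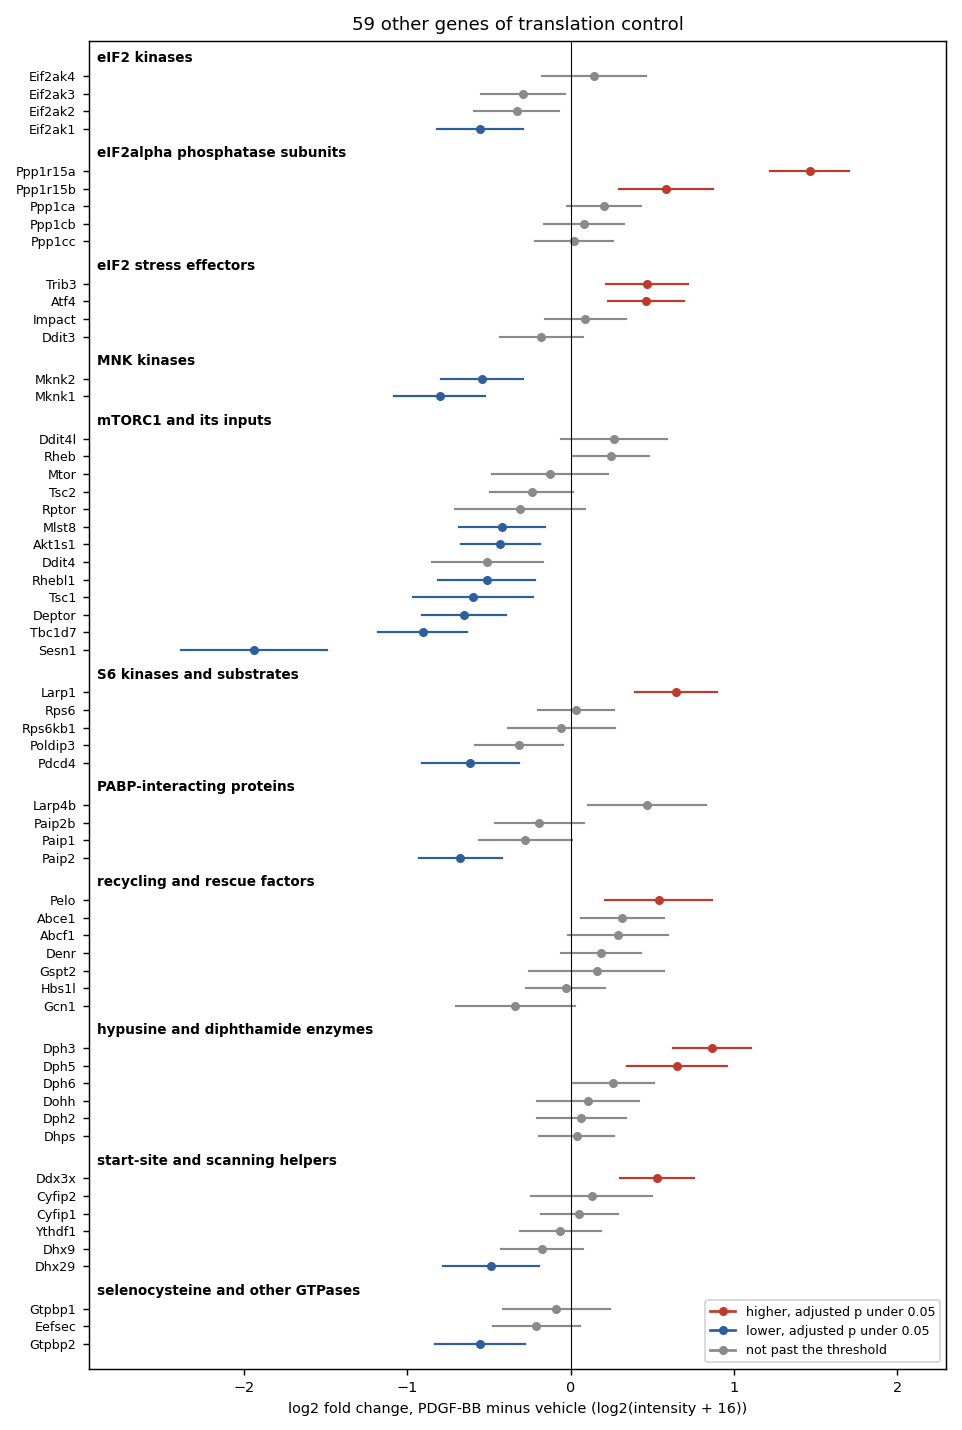
Log2 fold change (PDGF-BB minus vehicle) with the 95% confidence interval from limma (n = 2 arrays a group) for the 59 other genes of translation control, grouped by role, in red where higher (9) and blue where lower (14) at an adjusted p under 0.05. Sesn1 at -1.94 and Ppp1r15a at 1.46 lie farthest from 0.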

How the data were processed

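RNA of 4 samples of rat aortic smooth muscle cells, 2 treated with PDGF-BB and 2 with vehicle, was hybridised to Affymetrix arrays as biotin-labelled cRNA, according to the labels. The authors deposited 1 table of linear intensity values per probe set. For its software, background correction and scaling, the sources used here give no details. Of 23764 probe sets, 57 were controls and 23707 entered the test. The platform annotation, of 2016, assigned a single symbol to 17279 probe sets, more than 1 to 373 and no symbol to 6055. All 58 members, on 72 probe sets, matched a current RefSeq gene ID with the same symbol. Values were tested as log2(intensity + 16), an offset that understates changes of dim genes, using limma 3.58.1 (lmFit, then eBayes) under R 4.3.3 as a two-sided test with 2 residual degrees of freedom and Benjamini-Hochberg adjustment over the 23707 probe sets at a threshold of 0.05. In a simulation, the same steps recovered 4 of 65 probe sets given a log2 change of 0.5. They recovered 55 of 61 given a change of 1 and 74 of 74 given a change of 2. Of 23507 probe sets given no change, 9 were called. Changes of 0.5 were thus mostly missed in the simulation. It changed a far smaller share of probe sets than the 27.7% of genes called in the data. That makes the adjusted threshold stricter there, so its recovery rates do not carry over to the data. A gene that did not pass may still have changed. Members, complexes and the list of regulators were chosen with earlier results of these data known. Array values are given for called members, up to 4 a complex, for the brightest member of a complex with fewer than 2 calls, and for up to 10 called regulators, and for other members where a comparison needed them. Intensities of different probe sets are not compared. Alternatives were other offsets, 3 scalings, a filter on dim probe sets, other probe set choices, a variance trend, a replicate block and leaving out each array.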

Additional observations from a re-analysis of the deposited data

How the results depend on the processing

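All 17 called members kept their direction under the 14 other settings, and Eif4e alone kept its call in all of them. Leaving out 1 array gave 1 to 10 members higher and 0 to 3 lower, and 1 to 5 regulators higher and 1 to 11 lower; the lone array of a group is then assumed to vary like the other group. Quantile normalization called 7 members lower and moved the members' median to 0.011, subtracting array medians moved it to 0.20, and a variance trend called 26 members higher and 5 lower (16.2% and 20.3% of all genes). An offset of 1 called 7 regulators lower. With the replicate number as a block, 11 members were higher and 3 lower (10.6% and 12.6% of all genes), and Eif4a1, Eif5a2 and Gspt1 lost their calls (limma adjusted p 0.0722, 0.0562 and 0.0987). Deviations of same-numbered arrays correlated at -0.098 over all probe sets and at 0.22 over those of the members, and nothing in the labels says that a number marks a shared culture. The scalings moved the median of all probe sets by -0.0053 (quantile), 0.08 (medians) and 0.03 (loess) and that of the members by -0.12, 0.08 and -0.03. The cause of these moves was not tested. Of the 41 members that did not pass, 20 changed sign somewhere. With quantile normalization the log2 fold change was -0.015 for Eef1d, -0.061 for Eif2b2, -0.025 for Eif2d, -0.12 for Eif3c, -0.051 for Eif3d, -0.0027 for Eif3i, -0.10 for Eif3m, -0.043 for Eif4a2, -0.042 for Eif4ebp1, -0.077 for Eif4g1 and -0.12 for Eif4h. With array medians subtracted it was 0.074 for Eef1a1, 0.076 for Eef1g, 0.066 for Eif3f, 0.015 for Eif3k, 0.065 for Eif3l and 0.056 for Eif5b. With cyclic loess it was -0.031 for Eif3c, -0.074 for Eif3m, -0.069 for Eif4a2, -0.036 for Eif4g2 and -0.028 for Eif4h. With the mean of all probe sets it was 0.056 for Eif3k. Leaving out 1 array gave -0.038 to 0.032 for Eef1a1, -0.032 to 0.031 for Eef1g, -0.053 to 0.14 for Eif2b2, -0.013 to 0.074 for Eif2b5, -0.035 to 0.013 for Eif3f, -0.049 to 0.026 for Eif3l, -0.020 to 0.066 for Eif3m, -0.049 to 0.17 for Eif4ebp3 and -0.12 to 0.076 for Eif5b. The number of arrays, 2 a group, limits these results, and dim members such as Eef1a2 have values near background.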

Other observations

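Probe sets annotated with more than 1 gene stood outside the members. The 3 probe sets of Eif5 or its pseudogene Eif5-ps1, for the factor that triggers GTP hydrolysis by eIF2, gave 1884 and 1845, 3082 and 2985, and 3602 and 3465 with PDGF-BB, against 1280 and 1402, 2327 and 2410, and 2436 and 2851 with vehicle. Their limma adjusted p-values were 0.0315, 0.0510 and 0.0651. The probe set of Eif3e or Eif3el1 gave 6561 and 6426 with PDGF-BB against 6154 and 6440 with vehicle (limma adjusted p 0.761), with overlapping groups. Of the 58 members, 47 were brighter on PDGF-BB replicate 1 than on PDGF-BB replicate 2, with a median log2 difference of 0.07, and 17 were brighter on vehicle replicate 1 than on vehicle replicate 2, with a median of -0.02.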
